A study of Mus musculus with 16 samples.

Results

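The later interval of the response of D10 cells to CD3/CD28 stimulation was followed here in cells that received no inhibitor, by comparing the arrays taken at 12 h with those taken at 6 h. The comparison used 4 of the 16 arrays of the series, 2 labelled 6hour_minusAkti and 2 labelled 12hour_minusAkti, and covered the 7395 of 18138 genes whose signal lay above the negative control probes (detection p below 0.01) on at least 2 of the 16 arrays. D10 is a fast-growing variant of a single mouse Th2 T cell clone. All groups were kept in the same medium with rhIL-2. Apart from the 0 h groups they were stimulated with biotinylated antibodies to CD3 and CD28 clustered by streptavidin, and the 0 h control arrays served as the starting level. For comparison, Akti1/2-treated cells were exposed to 10 uM of this allosteric inhibitor of Akt for 1 h before the same 6 or 12 h of stimulation. The sources describe the control cells both as left untreated and as given solvent, so effects of the inhibitor and of its solvent cannot be told apart. Each group had 2 arrays, and no label says whether these came from separate cultures, so the p-values measure the spread between arrays, which may be technical.

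Stimulation of a T cell through its antigen receptor and CD28 sets off a sequence of transcriptional events. Immediate early factors and NF-kB-driven cytokine and chemokine genes respond first, and the cell then enlarges its metabolism and prepares to copy its DNA. Sterol and fatty acid enzymes supply new membrane, E2F-controlled genes prepare the cell for S phase, and the replication-dependent histone genes are transcribed mainly while DNA is being copied. Feedback inhibitors, such as RNA-degrading factors and phosphatases, limit the early part of the response.

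The 4 arrays had 6359 to 6496 genes above the negative controls, and the 2 arrays of a time point correlated at 0.9917 (6 h) and 0.9936 (12 h) across the tested genes. Of the 16 genes taken to mark T cells of the Th2 type, 12 were above background on all 4 arrays, with Gata3 between 12.47 and 12.65 on the log2 intensity scale and Cd3d between 12.71 and 12.86. Thy1, Maf and Ccr4 were at background on all 4, and Cd4 was above it on 3. Of 17 markers of other cell types, 15 were at background on all 4 arrays. The exceptions were Hba-a1 (alpha globin), at 10.09 and 10.10 at 6 h and 9.12 and 9.19 at 12 h, and Pecam1 (an adhesion molecule), at 6.52 and 7.09 at 6 h and 5.75 and 5.58 at 12 h. Both fell between the 2 times, and their part in the results below was not tested. Of 14 genes of other T helper programmes, 13 were at background on all 4 arrays. All levels below are log2 intensities after background correction and quantile normalization, so a change is relative to the other genes of the array. With bulk RNA, a change in the share of cells that express a gene and a change in its level per cell cannot be told apart.

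Between 6 and 12 h, 1005 of 7395 genes passed limma with Benjamini-Hochberg adjustment at 0.05, of which 514 were higher (6.95% of the genes tested) and 491 lower (6.64%). The median change of the called genes was 0.62 on the log2 scale in either direction, and 52 rose and 78 fell by at least 2-fold. Of the genes called higher, 71 were at background on both 6 h arrays. Of those called lower, 64 were at background on both 12 h arrays. For these genes only a lower bound of the fold change can be given. The count of calls depended on the number of arrays: it was 495 without the first 6 h array, 494 without the second, 392 without the first 12 h array and 510 without the second. It was 589 when arrays were scaled to a common mean.

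**Figure D1:**
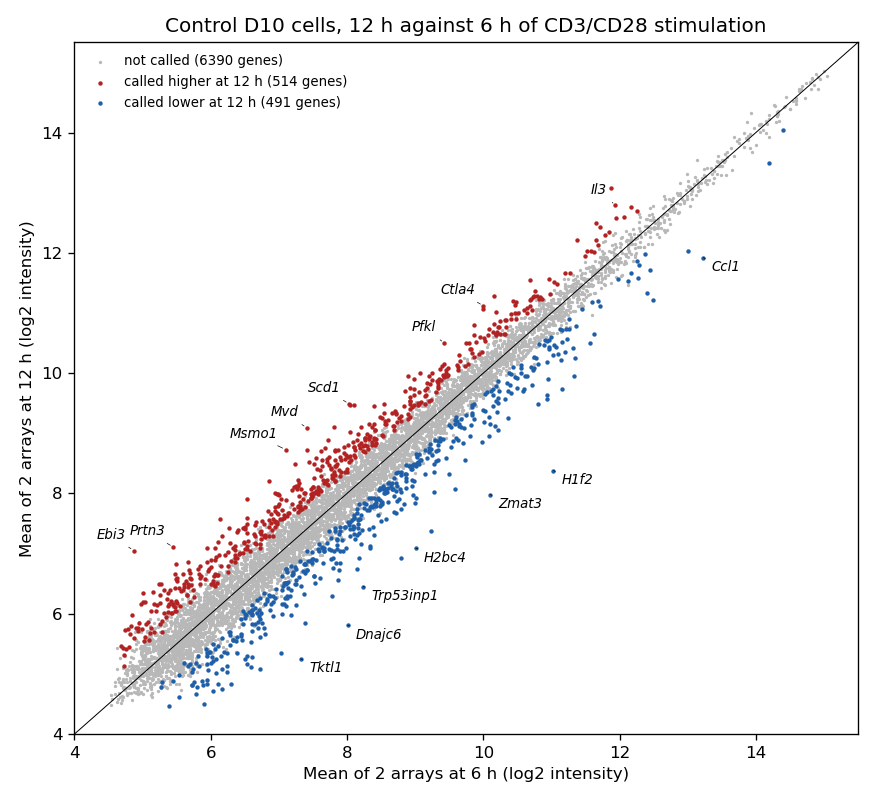
Mean log2 intensity of the 2 control arrays at 12 h (vertical axis) against the mean of the 2 at 6 h (horizontal axis) for 7395 genes, with the line of equal level. The 514 genes called higher (red) lie above the line and the 491 called lower (blue) below it, with H1f2 farthest below and Ebi3 farthest above.

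The largest fall was that of H1f2, a linker histone of compact chromatin. Its level was 11.08 and 10.99 on the 6 h arrays and 8.35 and 8.41 on the 12 h arrays, a fall by 2.65 (SE 0.10, n = 2 arrays a group), or 6.28-fold, with a limma adjusted p of 3.34e-08. Dnajc6 (auxilin, which uncoats clathrin vesicles) was at 8.13 and 7.89 at 6 h and at 5.69 and 5.94 at 12 h. The 2 genes had already fallen from 0 to 6 h, with changes of -1.10 and -1.88. Zmat3, an RNA-binding p53 target, went from 10.16 and 10.03 to 7.86 and 8.10. Among the 12 largest falls were also Tktl1 (transketolase-like; at background at 12 h and at least 3.06-fold lower), the histone gene H2bc4, the G protein regulator Rgs12, the meiotic gene Hormad2, the p53 target Trp53inp1, the translation inhibitor Pdcd4, the inhibitory receptor Lilr4b (at least 2.01-fold lower), the transcription repressor Bach2 and the phosphatase Ptp4a3. These had changes between -2.07 and -1.50. The call of Pdcd4 was lost without the first 6 h or the first 12 h array (limma adjusted p between 0.122 and 0.139).

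Ebi3, a subunit shared by the cytokines IL-27 and IL-35, had the largest fitted rise. It was at background on both 6 h arrays (4.66 and 5.07) and at 7.12 and 6.98 at 12 h, at least 2.58-fold higher, with a limma adjusted p of 2.48e-05. Of the 16 arrays only these 2 had it above background, so it entered the test through the group in which it was high. Mvd and Msmo1, which were measured at both times, rose by 3.20-fold and 3.10-fold, so the order of these genes is not known. Prtn3, a granule protease, was likewise at background at 6 h (5.37 and 5.53) and reached 7.0 and 7.22, at least 2.68-fold higher. Il12rb1, a receptor chain for IL-12 and IL-23, stood at 6.54 and 6.52 at 6 h and at 7.93 and 7.89 at 12 h, with no change called from 0 to 6 h. The other rises among the 12 largest by fitted value were the lipid genes Mvd, Msmo1, Scd1, Acat2 and Pmvk, the cobalamin transport receptor Cd320, the Polycomb component Pcgf5, the recombination gene Rad51c (at least 1.58-fold) and the forkhead factor Foxq1 (at least 2.21-fold). Thus 5 of the 12 act in sterol or fatty acid synthesis.

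A gene could arrive at its 12 h level by several paths, and the genes called between 6 and 12 h were therefore sorted by their change from 0 to 6 h. From 0 to 6 h, 897 genes were called higher (12.1%) and 1140 lower (15.4%), and from 0 to 12 h 937 higher (12.7%) and 1117 lower (15.1%). Of the 514 genes that rose late, 249 had first fallen by 6 h, 31 had already risen and 234 had no call by 6 h. Of the 491 that fell late, 187 had first risen, 65 had already fallen and 239 had no call by 6 h. Of the 249 that had first fallen, 209 were not called against 0 h at 12 h, 32 were still below it and 8 were above. Of the 187 that had first risen, 47 were still above the 0 h level at 12 h, 123 were not called against it and 17 were below. Of the 234 without an earlier call, 138 were above 0 h at 12 h. The 3 contrasts share arrays, so noise on a 6 h array moves both changes of a gene, and the counts are given as a description with no test.

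Sterol and fatty acid genes had the largest share of rises among the lists with at least 8 tested genes. Of 24 tested genes of sterol synthesis and uptake, 14 rose and none fell, with a median change of 0.57 against 0.002 over all genes. From 0 to 6 h, 16 of the 24 had been called lower (median -0.82), and at 12 h 6 were still called below the 0 h level. Mvd, which makes isopentenyl diphosphate in the mevalonate pathway, dropped from 9.27 and 9.57 at 0 h to 7.43 and 7.39 at 6 h, and its 12 h arrays read 9.12 and 9.05. It thus rose by 1.68 (SE 0.12, limma adjusted p = 1.45e-05), and its 12 h level was not called against 0 h. Msmo1, a later sterol demethylation enzyme, was at 7.29 and 6.91 at 6 h and at 8.63 and 8.82 at 12 h. Scd1, which desaturates fatty acids, was at 8.01 and 8.06 and then at 9.49 and 9.50. In these 3 genes both 12 h arrays read higher than both 6 h arrays, as the choice of called genes implies. Pmvk, the enzyme before Mvd, went from 6.95 and 6.76 to 8.25 and 8.14. Acat2, a thiolase at the entrance to the pathway that is not on the list, went from 7.95 and 8.14 to 9.60 and 9.34.

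Several further members, chosen after their values were seen, show the range of the group. Sqle (squalene epoxidase) rose by 1.11 (limma adjusted p = 5.53e-05) and Cyp51 (lanosterol demethylase) by 1.09 (0.000163). Srebf2, the gene of the transcription factor that drives the pathway, had no call at 9.02 and 9.22 at 6 h and 9.45 and 9.04 at 12 h. Without one array, 8 to 10 of the 24 genes were called: 9 without the first and 10 without the second 6 h array, and 8 without the first and 9 without the second 12 h array.

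The promoters of the group were read from RefSeq (GRCm38.p6) as the 250 bases before and 50 after each annotated start, and 16 of the 24 genes had at least 1 window. The CCAAT box (CCAAT or its reverse complement), which NF-Y binds, was found in 15 of 19 windows (78.9%), against 37.4% of 32851 windows of all genes. It was also in 29 of 36 windows (80.6%) of the canonical histones, a list with falls and no rises. The motif TCACNCCAC, 1 form of the sterol regulatory element, was found in none of the 19 and in 1.24% of all windows, on either strand. The windows of Mvd (chr8:122443373-122443672, minus strand) and Cyp51 (chr5:4104648-4104947, minus strand) are shown because the 2 genes were called higher at 12 h, with the CCAAT box in capitals.
Mvd: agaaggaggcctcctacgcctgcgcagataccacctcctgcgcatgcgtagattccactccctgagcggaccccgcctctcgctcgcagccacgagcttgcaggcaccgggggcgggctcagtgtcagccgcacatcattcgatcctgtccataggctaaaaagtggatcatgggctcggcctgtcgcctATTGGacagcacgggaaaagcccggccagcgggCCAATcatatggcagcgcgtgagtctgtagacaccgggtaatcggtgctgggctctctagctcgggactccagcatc
Cyp51: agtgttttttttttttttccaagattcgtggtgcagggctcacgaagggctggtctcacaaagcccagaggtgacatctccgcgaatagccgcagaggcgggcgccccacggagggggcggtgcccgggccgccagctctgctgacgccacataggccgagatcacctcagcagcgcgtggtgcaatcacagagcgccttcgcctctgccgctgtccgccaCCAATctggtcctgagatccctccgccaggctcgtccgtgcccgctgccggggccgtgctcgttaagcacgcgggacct

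Some genes that prepare and carry out DNA replication rose, and most had no call. Of 53 tested genes of the G1 to S phase transition and of replication, 14 rose and none fell (median 0.30), after 29 had been called lower from 0 to 6 h. At 12 h, 7 of the 53 were called above the 0 h level and 7 below it, with a median change from 0 h of -0.05. Ccne1 (cyclin E1, which activates Cdk2 before S phase) was at 6.62 and 6.44 at 6 h and at 7.56 and 7.62 at 12 h, a rise by 1.06 (SE 0.11, limma adjusted p = 0.000152). Its 12 h level was also above the 0 h arrays, at 7.11 and 6.93. Ung, which removes uracil from DNA, went from 7.37 and 7.51 to 8.65 and 8.41. E2f1, a transcription factor of S phase genes, went from 8.77 and 8.92 to 9.77 and 9.64, with 9.68 and 9.73 at 0 h. Cyclin E1 and Ung therefore ended above their 0 h level, whereas no change of E2f1 between 0 and 12 h was called. Orc1, of the origin recognition complex, was at background at 6 h and at least 1.41-fold higher at 12 h, and lost its call without the first 6 h array or the first 12 h array (limma adjusted p between 0.123 and 0.126).

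Chosen after their values were seen, Cdc6 (a helicase loader) rose by 0.72, E2f2 by 0.68 and Rrm2 (a subunit of ribonucleotide reductase) by 0.65. The call of Cdc6 was lost without the second 6 h array (limma adjusted p = 0.0558) and that of E2f2 without the first 6 h or the second 12 h array (between 0.117 and 0.124). Without the first 6 h array, 7 of the 53 genes rose, against 10 without the second, and 9 without either 12 h array. Of 34 tested mitotic genes, 1 fell (the spindle checkpoint gene Bub3, with no mitotic call under common-mean scaling or without the second 6 h or first 12 h array) and none rose, with 2 higher at an unadjusted p below 0.05 and none above a J5 score of 20 (a scaled difference of intensities). Over all genes, 2022 of the 7395 tested had an unadjusted limma p below 0.05 in either direction, and 41 of 18138 a J5 score above 20. The shares of the replication and mitotic lists were not tested against each other. An E2F site, searched as TTTGGCGC, TTTGGCGG, TTTCCCGC or TTTCGCGC on both strands, was found in 21 of 57 windows of the list (36.8%) and in 2.37% of all windows. The share covers all genes of the list with a window, called or not. Of the rising genes named above, Cdc6, E2f2 and Orc1 had an E2F site, and Ccne1, Ung, E2f1 and Rrm2 had none. The site was also in 8 of 36 windows (22.2%) of the canonical histones, a list with falls and no rises. The window of Cdc6 (chr11:98907901-98908200, plus strand) holds 1 E2F site, in capitals.
Cdc6: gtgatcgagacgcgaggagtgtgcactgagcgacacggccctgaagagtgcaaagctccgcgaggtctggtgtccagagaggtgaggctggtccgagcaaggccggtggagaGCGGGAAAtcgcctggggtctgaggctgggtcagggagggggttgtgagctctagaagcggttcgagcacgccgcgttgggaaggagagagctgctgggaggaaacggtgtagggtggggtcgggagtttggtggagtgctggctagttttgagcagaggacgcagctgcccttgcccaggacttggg

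Some enzymes of sugar use rose as well. Of 20 tested genes of glycolysis and glucose uptake, 7 rose and none fell (median 0.34), and 9 had been called lower from 0 to 6 h. At 12 h, 1 of the 20 was called above the 0 h level and 3 below it, with a median change from 0 h of -0.06. Pfkl, the liver-type phosphofructokinase, was at 9.38 and 9.48 at 6 h and at 10.50 on both 12 h arrays, a rise by 1.07 (SE 0.12, limma adjusted p = 0.000163). Pdk1, which restrains the entry of pyruvate into mitochondria, went from 7.26 and 7.31 to 8.22 and 8.11. The glucose transporter gene Slc2a3 went from 11.42 and 11.33 to 12.36 and 12.06. The count was 3 of 20 without the first 12 h array, 5 without the first 6 h array and 6 without either of the others. Slc2a1, a second glucose transporter chosen after its values were seen, rose by 0.65 and lost its call without the second 6 h array, without the first 12 h array and when only the 2 groups compared were fitted (limma adjusted p between 0.0544 and 0.0959).

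**Figure D2:**
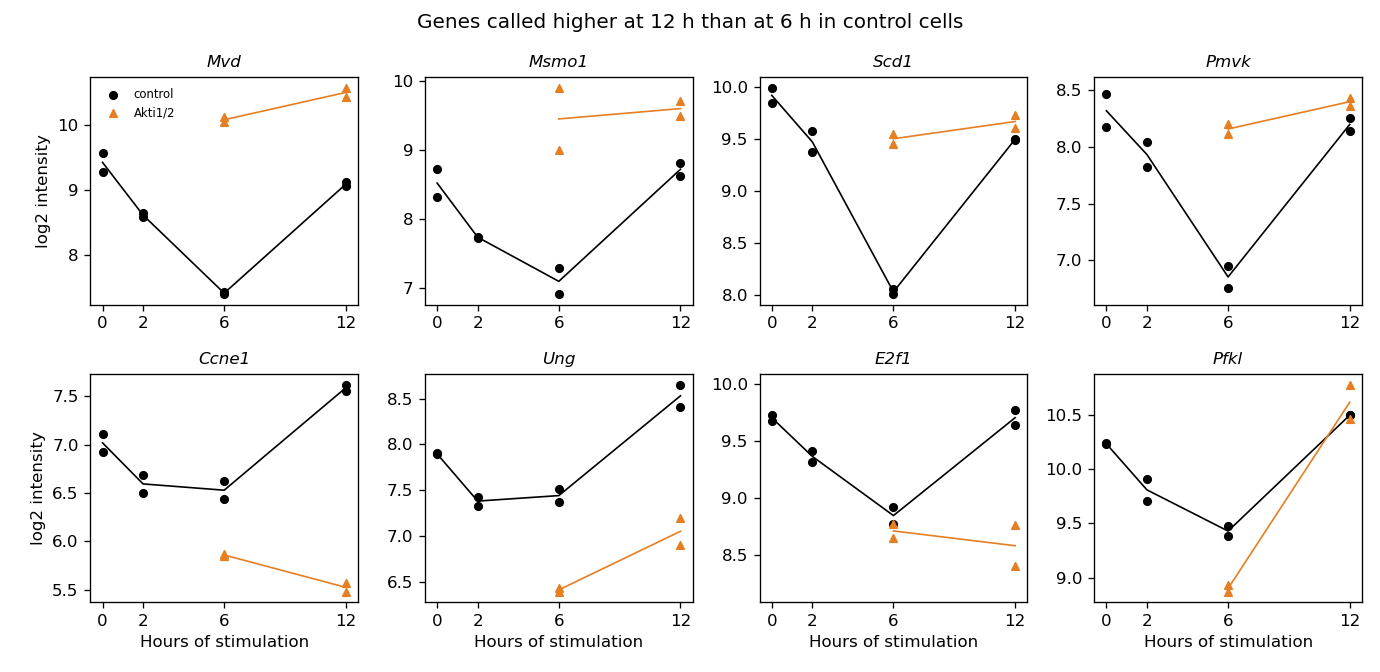
Log2 intensity of each array (points; lines join the means of 2) at 0, 2, 6 and 12 h of stimulation in control cells (black circles) and at 6 and 12 h in Akti1/2-treated cells (orange triangles) for 8 genes, with a separate vertical scale in each panel. In control cells all 8 genes are lower at 6 h than at 0 h and higher again at 12 h, as for Mvd with a mean change of -2.01 and then 1.68.

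Canonical histone genes were among those that fell. Of 41 tested canonical histone genes, 11 fell and none rose (median -0.25), and 8 of the 11 encode H2B. H2bc4 was at 9.14 and 8.87 at 6 h and at 7.07 and 7.11 at 12 h, a change of -1.91 (SE 0.26, limma adjusted p = 0.000603). H2bc9 was at 9.46 and 9.53 and then at 8.39 and 8.24. H2bc8 was at 5.91 and 6.15 at 6 h and at background at 12 h, at least 1.25-fold lower. The 12 h arrays of H2bc4 and H2bc9 also lay below their 0 h arrays, which stood at 8.18 and 8.49 for H2bc4 and at 9.12 and 9.11 for H2bc9. Of the 41 genes, 8 had been called higher from 0 to 6 h and 20 were called lower from 0 to 12 h. Leaving out any of the 4 arrays left 10 calls. The histone genes are a family of near-identical copies, so a probe of one may also read others, and the values of single members are uncertain.

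The octamer ATTTGCAT, the element on which Oct1 acts in H2B promoters, was found in 5 of 9 windows of H2B genes (55.6%), in 4 of 27 windows of the other canonical histones (14.8%) and in 1.74% of all windows. Of the 5 H2B genes, H2bc8, H2bc12 and H2bc14 were among the 8 that fell, and H2bc9, H2bc7, H2bc11 and H2bc15 fell without this exact motif in their window. The window of H2bc4 was not analysed here. H2bc14, named after its values were seen, fell by 0.99 (limma adjusted p = 0.000755). The windows of H2bc8 (chr13:23571150-23571449, plus strand) and H2bc14 (chr13:21721794-21722093, plus strand) are shown with the octamer in capitals, since H2B genes made up most of the histone calls.
H2bc8: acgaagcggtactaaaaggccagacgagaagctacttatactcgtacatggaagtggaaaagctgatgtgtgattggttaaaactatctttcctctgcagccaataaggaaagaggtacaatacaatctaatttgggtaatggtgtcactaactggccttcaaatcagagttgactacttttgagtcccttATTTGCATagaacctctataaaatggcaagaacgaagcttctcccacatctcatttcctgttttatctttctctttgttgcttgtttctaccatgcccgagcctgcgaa
H2bc14: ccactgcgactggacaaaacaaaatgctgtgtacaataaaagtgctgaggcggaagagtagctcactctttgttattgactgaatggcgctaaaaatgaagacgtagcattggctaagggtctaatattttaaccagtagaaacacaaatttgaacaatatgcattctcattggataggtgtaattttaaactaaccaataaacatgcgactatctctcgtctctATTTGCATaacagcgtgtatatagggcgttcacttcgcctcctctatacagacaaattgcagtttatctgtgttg

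Of 20 tested p53 targets and cell death genes, 11 fell and none rose (median -0.44). They had taken different paths to 6 h, with 9 of the 20 called higher and 6 lower from 0 h. Zmat3 rose from 8.26 on both 0 h arrays to 10.27 and 10.60 at 2 h, and its 12 h arrays, at 7.86 and 8.10, were not called against 0 h. Ccng1 (cyclin G1) was at 9.92 and 9.74 at 0 h and at 10.76 and 10.85 at 6 h, and its 12 h arrays read 9.50 and 9.47. Trp53inp1, which promotes autophagy and cell death, was higher at 2 h (9.93 and 10.04) than at 0 h (8.40 and 8.33), was back at 8.26 and 8.21 at 6 h, and fell to 6.21 and 6.69 at 12 h, a change of -1.79 from 6 h (SE 0.18, limma adjusted p = 0.000112). Gadd45g, a stress gene induced by cytokines, started from 8.84 and 8.98 at 0 h, read 11.14 and 11.18 at 6 h, and had come down to 9.71 and 9.76 by 12 h. Zmat3 and Ccng1 thus passed a maximum before 12 h and returned to or below their start, whereas Gadd45g stayed above it.

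The fall covered genes of opposite known effects. Chosen after their values were seen, Bbc3 (PUMA, which promotes apoptosis) fell by 0.87, Bax (which permeabilizes mitochondria) by 0.68, Bcl2l1 (Bcl-xL, which protects cells) by 0.60 and Mdm2 (which restrains p53) by 0.39, and Cdkn1a (p21) had no call at -0.24. The calls of Bax, Bcl2l1 and Mdm2 were lost in 3, 9 and 8 of 12 alternatives, array omissions among them, and also with the chip as a block for Bcl2l1 and the replicate number as a block for Mdm2, with limma adjusted p values of up to 0.147, 0.231 and 0.212 over the settings that lost them. The count for the list was 6 of 20 without either 6 h array and 7 without either 12 h array.

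**Figure D3:**
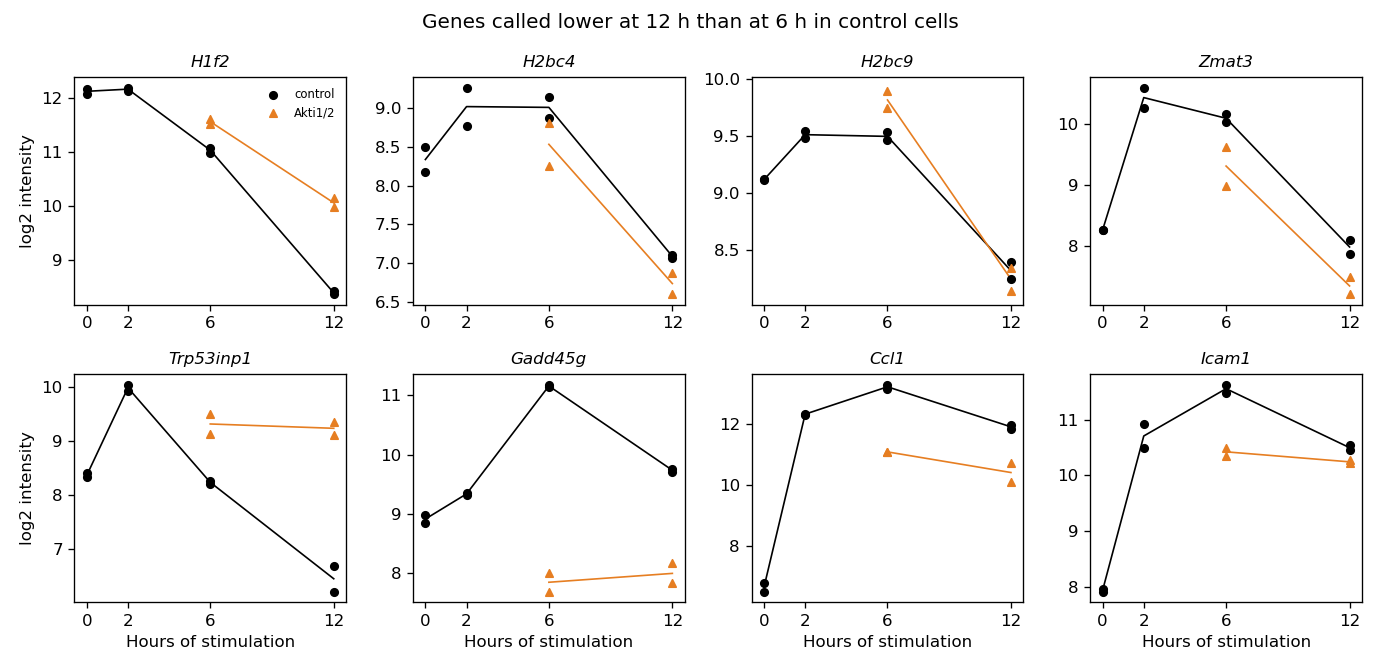
Log2 intensity of each array (points; lines join the means of 2) at 0, 2, 6 and 12 h of stimulation in control cells (black circles) and at 6 and 12 h in Akti1/2-treated cells (orange triangles) for 8 genes, with a separate vertical scale in each panel. H1f2, H2bc4 and H2bc9 end below their 0 h level in control cells, while Gadd45g, Ccl1 and Icam1 are higher at 12 h than at 0 h despite the fall after 6 h.

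Some cytokine genes fell from their 6 h levels, and most had no call. Of 22 tested cytokine and growth factor genes, 20 had been called higher at 6 h and 18 at 12 h against 0 h. Between 6 and 12 h, 6 of the 22 fell and 1 rose (median -0.40). Areg (amphiregulin, an EGF receptor ligand) was at 12.60 and 12.38 at 6 h and at 11.22 and 11.23 at 12 h, a fall by 1.27 (SE 0.21, limma adjusted p = 0.00247). Ltb (lymphotoxin beta) fell from 11.45 and 11.22 to 10.27 and 10.25. The other 4 that fell were Lif, Il24, Tnfsf14 and Osm. Il24 was above background on only 3 arrays of the series, the 2 control arrays at 6 h and 1 at 12 h. It thus entered the test through the group in which it was high. Il3, a growth factor of haematopoietic cells, was the 1 gene that rose. It went from 11.83 and 12.05 to 12.81 and 12.76, after 4.80 and 4.69 at 0 h. Its rise by 0.85 (limma adjusted p = 0.0281) lost its call when any of the 4 arrays was left out or dim genes were kept (between 0.0569 and 0.157).

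The Th2 cytokine genes and several others had no call between 6 and 12 h. Il4 had a difference of -0.26 (limma adjusted p = 0.243), Il5 of 0.20 (0.671), Il13 of -0.45 (0.554) and Csf2 (GM-CSF) of -0.40 (0.228). The intervals are wide for some of them, with an SE of 0.43 for Il13 and 0.26 for Il5. Tnf was at 10.76 and 10.73 at 6 h and 10.07 and 10.23 at 12 h with no call (adjusted p = 0.128), although 3 of the alternatives called it (between 0.0134 and 0.0372). Il10 was at 12.06 and 12.20 and then at 11.83 and 11.11 (adjusted p = 0.0602), and 3 alternatives called it (between 0.0148 and 0.0382). The direction of Il5 turned to -0.038 without the first 6 h array.

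Of 8 tested chemokine genes, 4 fell and none rose (median -0.40). Ccl1, the ligand of CCR8, started from 6.52 and 6.82 at 0 h, read 13.29 and 13.16 at 6 h, and stood at 11.86 and 11.97 on the 12 h arrays, a fall by 1.31 (SE 0.18, limma adjusted p = 0.00065). Its 12 h level was still 5.25 above 0 h. Cxcl2, Ccl17 and Ccl3 fell by 1.00, 0.61 and 0.51, but only 1 or 2 of the 4 chemokine calls remained when an array was left out, with adjusted p values for the 3 of up to 0.0975, 0.169 and 0.12 over the settings that lost them. Ccl4, another inflammatory chemokine gene, had no call (-0.27, adjusted p = 0.234).

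Some NF-kB genes also fell. Of 18 tested subunits, inhibitors and targets, 15 were called higher than at 0 h both at 6 h and at 12 h, and 5 fell between these times, with none rising and 13 without a call (median -0.35). Icam1 (an adhesion molecule for lymphocytes) was at 11.63 and 11.49 at 6 h and at 10.55 and 10.45 at 12 h, after 7.96 and 7.91 at 0 h, a fall by 1.06 (SE 0.13, limma adjusted p = 0.000359). Relb, a subunit of the alternative pathway, went from 8.82 and 8.66 to 7.71 and 8.05, and Nfkbiz, a nuclear regulator, from 8.97 and 9.06 to 7.85 and 7.98. Both lost their calls without the first 12 h array (0.0545 and 0.0516), and Gadd45b (-0.73) lost its call when any 1 of the 4 arrays was left out (up to 0.17). The count for the list was 3 without either 6 h array, 2 without the first 12 h array and 4 without the second. The motif GGNNTTTCC, part of the NF-kB site, was found in 8 of 21 windows of the list (38.1%) and in 5.82% of all windows. The share covers all genes of the list with a window, called or not. Of the falling genes named above, Icam1 had a match and Gadd45b had none, and no window of Relb or Nfkbiz was analysed here. The window of Icam1 (chr9:21015690-21015989, plus strand) holds 2 matches on the reverse strand, in capitals.
Icam1: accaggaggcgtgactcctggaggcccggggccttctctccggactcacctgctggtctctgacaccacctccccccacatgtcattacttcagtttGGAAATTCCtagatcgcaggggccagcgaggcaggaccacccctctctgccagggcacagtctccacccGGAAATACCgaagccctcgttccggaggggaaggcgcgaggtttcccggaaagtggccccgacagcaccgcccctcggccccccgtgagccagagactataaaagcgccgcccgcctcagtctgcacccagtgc

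Immediate early and feedback genes gave a minority of calls, nearly all lower. Of 12 tested immediate early genes, 5 fell and none rose (median -0.60). Zfp36 (tristetraprolin, which speeds the decay of cytokine mRNAs) was at 10.85 and 11.01 at 6 h and at 9.76 and 9.53 at 12 h, a change of -1.29 (SE 0.14, limma adjusted p = 0.000163). Crem fell from 6.60 and 6.61 to 5.78 and 5.87. Junb, Ier3 and Klf6 fell by 0.69, 0.70 and 0.63 and lost their calls when arrays were left out (adjusted p up to 0.0818, 0.182 and 0.159 over the settings that lost them). The list count was 2 without either 6 h array or the second 12 h array, and 4 without the first. Egr1 had no call, at 8.29 and 8.49 at 6 h and 9.05 and 9.01 at 12 h, both far below 13.26 and 12.96 at 0 h. It was called higher when only the groups compared were fitted (limma adjusted p = 0.0335). Of 19 feedback genes, among them the MAP kinase phosphatases, 4 fell and 1 rose: Rgs1, Cish, Socs2 and Dusp16 fell by 0.81, 0.74, 0.52 and 0.51, and the kinase gene Pim2 rose by 0.64. The calls of Socs2, Dusp16 and Pim2 were lost in several settings, arrays left out included (adjusted p up to 0.201, 0.14 and 0.233), and the count of falls was 2 without either 6 h array or the second 12 h array and 3 without the first.

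Few genes of cell surface receptors were called, some higher and some lower. Over all genes tested, 6.95% were called higher and 6.64% lower. Of 16 tested activation and checkpoint receptors, 3 fell and 2 rose. Cd69, an early activation marker, went from 10.35 and 10.07 to 9.15 and 8.94 (a fall by 1.16, SE 0.17, limma adjusted p = 0.000984), and Cd44 and the costimulatory receptor Icos also fell. Ctla4, the inhibitory receptor that competes with CD28, went from 10.07 and 9.94 to 11.16 and 11.08, after 9.25 on both 0 h arrays, a rise by 1.12 (SE 0.13, adjusted p = 0.000229). Tnfrsf18 (GITR) rose by 0.51. Icos and Tnfrsf18 lost their calls when single arrays were left out (adjusted p up to 0.0839 and 0.152). Of 15 cytokine receptor genes, Il18r1 and Il1rl1 (the IL-33 receptor) fell, by 1.35 and 0.81, and Il12rb1 rose, with a share of rises near that of all genes. Il18r1 was at background on both 12 h arrays and at least 1.76-fold lower. Cd82 and Cd52 had no call, at -0.12 and 0.16. Of 14 homing and quiescence genes, Btg1 (an antiproliferative factor) fell from 13.05 and 12.96 to 12.05 and 12.03, and the chromatin organizer Satb1 fell by 0.64.

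The machinery of protein synthesis and respiration gave few or no calls. None of 51 tested cytosolic ribosomal protein genes and none of 68 oxidative phosphorylation genes passed limma with adjustment, while 2 and 1 were lower and none higher at an unadjusted p below 0.05. Over all 7395 genes tested, 2022 had an unadjusted limma p below 0.05 in either direction. The J5 score weighs bright genes most. It was computed here as the difference of mean intensities, scaled between arrays and divided by the mean absolute difference of all genes, and it placed 15 of the 51 ribosomal protein genes below -20 and 1 above 20, and 2 of the 68 below -20. Over all 18138 genes, 81 were below -20 and 41 above 20. Of 52 ribosome biogenesis genes, 4 fell (near the share of all genes, and 1 of 52 when any of the 4 arrays was left out or under common-mean scaling) and none rose, although 32 had been called higher from 0 to 6 h and 26 were called higher at 12 h than at 0 h.

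**Figure D4:**
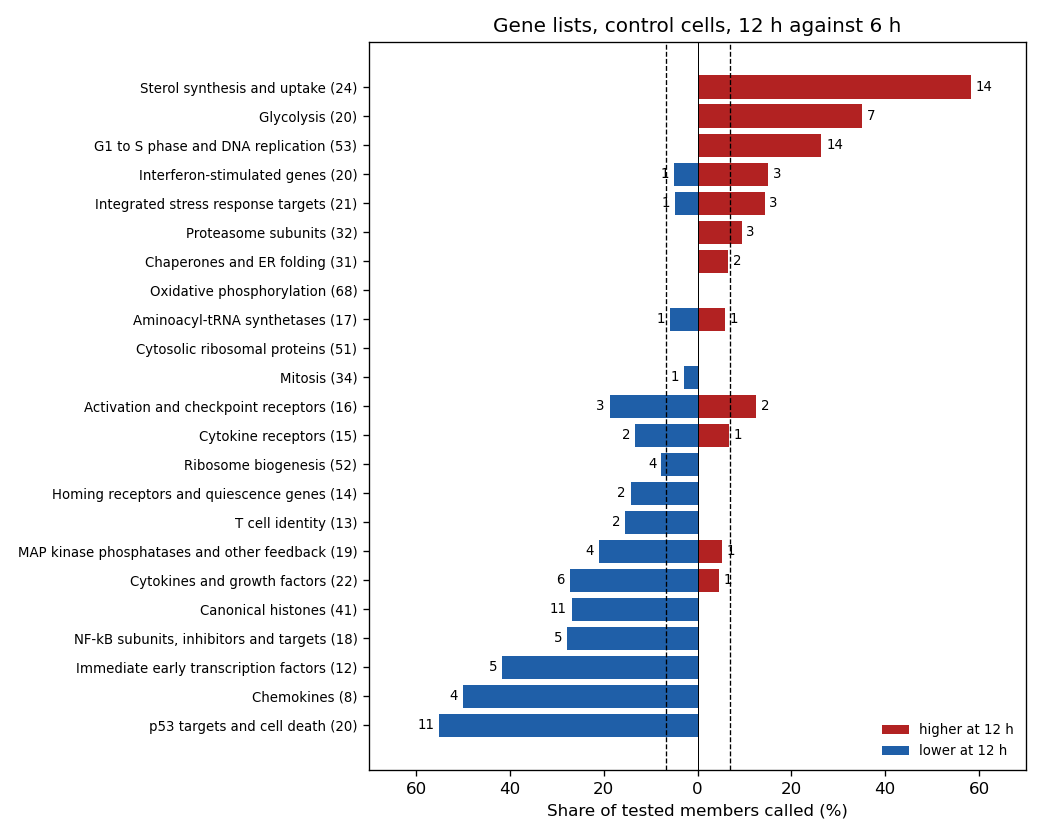
Share of the tested members of each gene list called higher (red, to the right) or lower (blue, to the left) at 12 h than at 6 h in control cells, with the number tested in parentheses and the number called beside each bar. The dashed lines mark the shares over all 7395 genes, 6.95% higher and 6.64% lower. Among the interferon-stimulated genes Gbp7 is counted more than once.

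The same interval was then compared between cells with and without Akti1/2 by a test of the difference of the 2 changes, which share no arrays. This difference passed in 438 genes, 222 (3%) with a more positive change under Akti1/2 and 216 (2.92%) with a more negative one. Of the sterol genes, 6 of 24 had a more negative change under Akti1/2 and none a more positive one. The Mvd level was 10.04 and 10.11 at 6 h and 10.57 and 10.42 at 12 h with Akti1/2, above all the control arrays at both times, and its change of 0.42 lay 1.26 below that of control cells (SE 0.17, limma adjusted p = 0.00212). Scd1 was at 9.45 and 9.55 and then at 9.73 and 9.60, near the control level at 12 h but not at 6 h. For both genes the control arrays at 6 h were the lowest of the 4 groups.

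Of the replication genes, 15 of 53 had a more negative change under Akti1/2 and none a more positive one. Ccne1 was at 5.85 and 5.87 at 6 h and at 5.57 and 5.48 at 12 h under Akti1/2, and the difference of its changes was -1.39 (SE 0.16, adjusted p = 0.00117). Tk1 (thymidine kinase) rose by 0.56 in control cells, from 8.21 and 8.26 to 8.76 and 8.81, and fell from 7.84 and 7.91 to 6.91 and 6.89 under Akti1/2 (difference -1.53, adjusted p = 0.000805). The control call of Tk1 was lost under the common-mean scaling and without the first 6 h or second 12 h array (between 0.0504 and 0.0556). In glycolysis, 4 of 20 genes had a larger rise under Akti1/2 and none a smaller one. Pfkl started lower, at 8.87 and 8.93, and reached 10.78 and 10.46 at 12 h, close to the control arrays.

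Of the 41 canonical histone genes, 5 had a more negative change under Akti1/2 and 1 a more positive one, with a median change of -0.73 under Akti1/2 against -0.25 in control cells. The 5, named after their values were seen, were H2bc18 (-1.16), H2ac21 (-1.14), H4c6 (-0.94), H2ac12 (-0.76) and H3c1 (-0.75), none of which was called in control cells. H2bc18 was at background in control cells at both times, so its value is a fitted one. The 8 H2B genes that fell in control cells gave no call in the difference, and H2bc4 went from 8.25 and 8.81 to 6.88 and 6.60 under Akti1/2 (difference 0.13, SE 0.36). For H1f2 the fall was smaller under Akti1/2, from 11.52 and 11.61 to 10.14 and 9.97 (difference 1.14, SE 0.15, adjusted p = 0.00171). Of the 20 p53 targets and cell death genes, 4 had a more positive change under Akti1/2 and 1 a more negative one. Zmat3 had a difference of 0.15 (SE 0.28) with no call. Trp53inp1 stayed at 9.13 and 9.50 at 6 h and 9.11 and 9.36 at 12 h under Akti1/2 (difference 1.71, adjusted p = 0.00352). Gadd45g was at 8.00 and 7.68 and then at 8.16 and 7.82, below the control arrays at both times (difference 1.58, adjusted p = 0.00133). Of the NF-kB genes, 4 of 18 had a less negative or more positive change under Akti1/2, as did 4 of 22 cytokine and 2 of 8 chemokine genes, with 1 cytokine gene, Il5, the other way.

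The 5 largest fitted differences towards a more positive change under Akti1/2, among genes whose changes did not overlap, were those of Cox6a2 (a respiratory chain subunit; 2.15), Rgs9 (1.89), Dusp4 (a MAP kinase phosphatase; 1.87), Ak4 (a mitochondrial adenylate kinase; 1.81) and Khnyn (1.76). Cox6a2 was at background on all arrays of the series except the 2 Akti1/2 arrays at 12 h, where it was at 7.49 and 7.42, at least 3.64-fold above the 6 h arrays with Akti1/2 (5.31 and 5.18). It entered the test through that group alone. Towards a more negative change they were Prtn3 (-1.75), Tk1, L1cam (an adhesion molecule; -1.51), Msmo1 (-1.48) and Il5 (-1.39). Cox6a2 and Prtn3 were at background in 3 of the 4 groups compared and L1cam in 2, so their differences are fitted values and no bounds, and their place in the order is not known. The difference was called in 126 genes when only the 4 groups compared were fitted and in 136 with common-mean scaling. It was called in 188 without either control 6 h array, 179 and 145 without the first and second control 12 h array, 595 and 313 without the first and second Akti1/2 6 h array, and 144 and 264 without the first and second Akti1/2 12 h array.

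**Figure D5:**
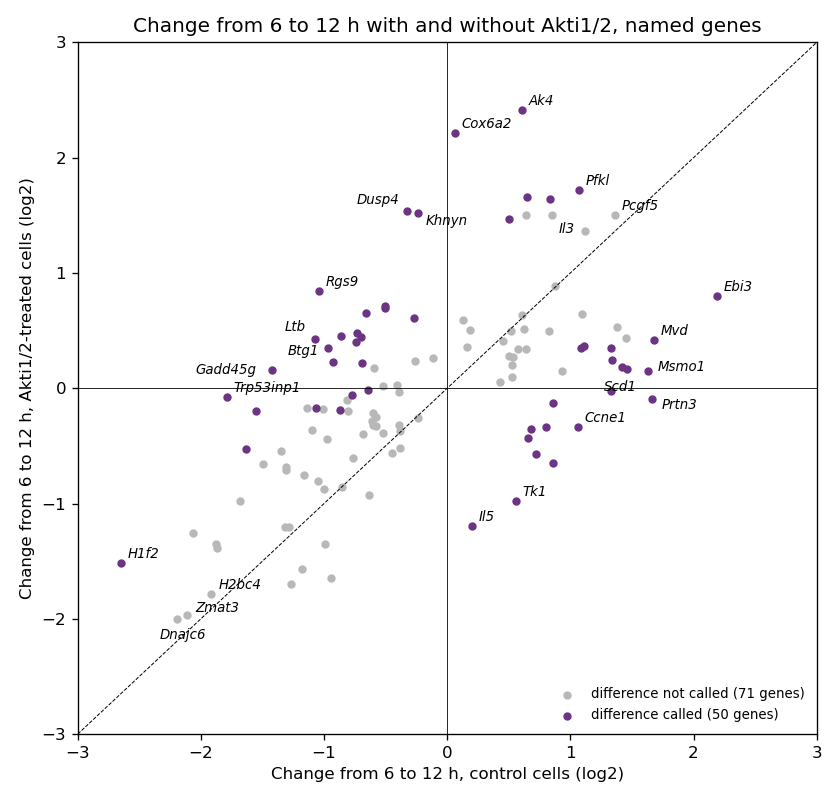
Change from 6 to 12 h in Akti1/2-treated cells (vertical axis) against the change in control cells (horizontal axis), both on the log2 scale, for the genes named by the rule or in the text; the dashed line marks equal change. Zmat3, H2bc4 and Dnajc6 lie near the line, Mvd, Scd1, Msmo1 and Ccne1 below it, and Trp53inp1, Gadd45g and Ltb above it.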

How the data were processed

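The authors hybridized biotinylated cRNA to Illumina MouseRef-8 BeadChips and deposited non-normalized intensities per gene with detection p-values, and intensities of the control probes. Per the file headers, neither background subtraction nor normalization was applied to these intensities. Here, neqc (offset 16, limma 3.58.1 in R 4.3.3) took the background from the 798 negative controls, applied quantile normalization and gave log2 values, which compresses changes of dim genes. All 8 groups of 2 arrays entered 1 limma fit with no covariate (8 residual and 4.261 prior degrees of freedom), with Benjamini-Hochberg adjustment at 0.05 over 7395 genes. The fit was tested on simulated data with known changes and independent noise, which does not cover noise shared between arrays. The number of arrays limits the precision.

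The genes named are the 12 largest called rises and falls with separated arrays, up to 4 called members per list and direction, the genes that the study's results name (Klf2 and Gadd45a were not above background on 2 arrays) and the 5 largest differences between courses in each direction; others are said to be chosen after their values were seen. The members and lists were chosen with earlier results of these data known, and symbols were updated through the RefSeq gene table (16590 of 18138 entries matched). A bound sets the higher group's mean against the lowest signal above background. Alternatives were another background correction, scaling or filter, blocks for replicate number and chip, fewer groups, single arrays left out and a J5 score, which the authors' methods name; it was computed here on the deposited intensities after scaling, with a threshold of 20, and may differ from theirs, since their threshold for this interval is not given in the sources used here.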

Additional observations from a re-analysis of the deposited data

Results flagged for a closer look

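A different change from 6 to 12 h with and without Akti1/2 was called by the limma interaction test in 438 genes, of which those named here are given with the difference, change under Akti1/2 minus change in control cells, on the log2 scale (2 arrays a group). Lipid genes had a more negative change under Akti1/2: Msmo1 by -1.48, Scd1 by -1.29, Mvd by -1.26, Acat2 by -1.24, Pmvk by -1.10, Sqle by -0.74 and Cyp51 by -0.73. So had the S phase genes Tk1 (-1.53), Ccne1 (-1.39), Cdc6 (-1.30), Rrm2 (-1.09), E2f2 (-1.04) and E2f1 (-0.99), the recombination gene Rad51c (-1.36), and Prtn3 (-1.75), L1cam (-1.51), Ebi3 (-1.39), Il5 (-1.39), the interferon-induced Ifit2 (-1.14) and Foxq1 (-0.99). In these genes the change in control cells was a rise, apart from Il5, which had no call in control cells. Of the 50 genes named here, 9 were at background on both arrays of at least 1 of the 4 groups compared. Their differences are therefore fitted values and no bounds. The 9 are Cox6a2, Ebi3, Prtn3, L1cam, Il24, Foxq1, Ifit2, Lilr4b and Rad51c. Of these, Il24 entered the test through the control arrays at 6 h, the group in which it was high.

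Of the 20 tested p53 targets and cell death genes, 4 had a more positive change under Akti1/2 and 1 a more negative one. Among p53 and stress genes, Trp53inp1 (1.71), Gadd45g (1.58), Gadd45b (1.21), Nupr1 (0.96) and Bbc3 (0.68) had a more positive change under Akti1/2. So had the cytokine and chemokine genes Ltb (1.5), Il10 (1.31), Ccl3 (1.22), Il24 (1.15) and Ccl4 (0.88), and the NF-kB genes Relb (1.31) and Icam1 (0.89). The same direction was called for Rgs9 (1.89) and for the early and feedback genes Dusp4 (1.87), Dusp16 (1.20), Cish (1.14), Ier3 (1.14), Junb (0.91) and Crem (0.72). It was called for the quiescence and lymphocyte genes Bach2 (1.36), Btg1 (1.32), Lilr4b (1.11) and Satb1 (0.62), and for the histone gene H1f2 (1.14). The metabolic genes Cox6a2 (2.15), Ak4 (1.81), Slc2a1 (1.01), Slc2a3 (0.81) and Pfkl (0.65), and Khnyn (1.76), complete the list. The 2 Akti1/2 arrays at 6 h differed more than those of any other group, with a median absolute log2 difference of 0.212 against 0.124 to 0.163 in the other groups. Its part in these differences was not tested, and leaving out the first of them raised the number of called differences to 595.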

How the results depend on the processing

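The 1005 calls between 6 and 12 h became 589 with scaling to a common mean (347 higher, 242 lower) and 122 beyond a J5 score of 20, and the cause was not tested. With a single array left out they were 392 to 510, with 194 to 263 higher and 198 to 259 lower, where fewer arrays leave fewer degrees of freedom. The other settings gave 683 to 1180. Genes that fell back after a rise numbered 90 with common-mean scaling and 90 to 139 with an array left out, those that started late 72 to 263 and those that recovered 114 to 173. The difference between courses had 136 calls with common-mean scaling, 126 with only the groups compared and 144 to 595 with an array left out. With the replicate number as a block there were 988 calls (507 higher, 481 lower), and the pairing check gave no sign that equal numbers pair the samples: deviations of same-numbered 6 h and 12 h control arrays correlated at -0.162. The crossed pairing, which is the pairing by chip and was added after seeing the data, gave 991 calls. Of the named genes, Mdm2, Psat1 and Psmb8 lost their calls with the replicate number as a block, and Bcl2l1, Farsa, Psat1, Psmb8 and Urb2 with the chip as a block. Cox6a2, with no call in control cells, changed sign to -0.182 without the first 6 h array, to -0.034 without the first 12 h array and to -0.084 within the second chip, Il5 to -0.038 without the first 6 h array and Srebf2 to -0.08 without the first 12 h array. With single arrays left out these 3 ranged up to 0.312, 0.433 and 0.332. Of 105 named genes with a call, 58 kept it under every alternative run and 47 lost it under at least 1. Of 16 named genes without a call, 3 gained one. Arrays that are dim against the negative controls limit changes of weak genes, and 135 of the calls were at background on both arrays of the lower group.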

Other observations

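Genes of antigen processing and interferon response moved in both directions between 6 and 12 h in control cells. Of 20 tested entries of interferon-stimulated genes, in which Gbp7 is counted more than once, Ifit2, Tap1 and Psmb8 rose. The guanylate-binding protein gene Gbp3 fell, from 8.84 and 8.83 to 7.78 and 7.87, while still 2.53 above 0 h. Tap1 and Psmb8, a peptide transporter and an immunoproteasome subunit, rose by 0.63 and 0.52. Of 32 tested proteasome genes, Psmb10, Psmd5 and Psmb8 rose and none fell. Over all genes tested, 6.95% rose and 6.64% fell. All 6 of these calls were lost with at least 1 array left out, with limma adjusted p values of up to 0.0901 for Ifit2, 0.198 for Tap1, 0.232 for Psmb8, 0.0555 for Gbp3, 0.0505 for Psmb10 and 0.0549 for Psmd5.

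Of 21 tested targets of the integrated stress response, the mitochondrial folate enzyme Mthfd2, the chromatin-binding Nupr1 and the transaminase Gpt2 rose by about equal amounts (0.53, 0.50 and 0.50) and the serine synthesis enzyme Psat1 fell by 0.39. Of 17 aminoacyl-tRNA synthetase genes, 1 rose and 1 fell, shares near those of all genes (6.95% and 6.64%). The 2 genes encode the 2 subunits of the phenylalanine enzyme, with changes of -0.60 for Farsa and 0.45 for Farsb. Farsa was at 7.01 and 7.20 at 6 h and at 6.32 and 6.67 at 12 h, and Farsb at 10.57 and 10.71 and then at 11.13 and 11.06. Each of these calls was lost in at least 2 of the alternatives run, with adjusted p values of up to 0.278 for Farsa and 0.128 for Farsb. Of 31 tested chaperone genes, 2 rose, a share near the 6.95% of all genes: Creld2 by 0.54 and Dnajb1 by 0.43. Creld2 lost its call under common-mean scaling (limma adjusted p = 0.0591) and Dnajb1 under 5 alternatives (up to 0.133). Of the ribosome biogenesis genes Pes1 fell from 9.74 and 9.65 to 8.77 and 8.91.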
